A study of Mus musculus with 6 samples.

Results

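Satellite glial cells wrap the cell bodies of sensory neurons in the dorsal root ganglion (DRG). Their RNAs were followed here through 10 genes chosen by name and Ensembl identifier, Apoe, Fabp7, Gfap, Glul, Kcnj10, Sparc, Sparcl1, Cryab, Ptgds and S100b, among the 16976 identifiers of the count table. All 10 were in the table. They were chosen with earlier results of these data known, so comparisons of them with all genes are descriptions. The RNA was what co-precipitated with LARP1 from lysates of freshly collected DRG of wild-type mice, in 1 group with sciatic nerve injury and 1 group without it. Each group had 3 libraries labelled as replicates, made as PCR-amplified nanopore cDNA. Age, the kind of nerve lesion, the time after it and the number of animals per library are not given in the labels, and no input RNA or control precipitate was analysed here. A value is therefore the level of an RNA in the precipitate. The amount of an RNA in the tissue and its binding to LARP1 cannot be told apart, and neither can fewer cells of a type and less RNA per cell.

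As background, satellite glia clear potassium and glutamate from around the neuron and supply it with lipid and glutamine. After a peripheral nerve is damaged they are known to become reactive around the injured neurons, with Gfap as the usual marker in protein studies. LARP1 is an RNA-binding protein that recognises the 5′ end of mRNAs starting with a terminal oligopyrimidine tract, a C followed by a run of C and T bases, and regulates their stability and translation. The canonical members of that class encode ribosomal proteins and translation factors, not the glial proteins described here.

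Because LARP1 reads the first bases of an mRNA, the DNA around the annotated start is shown for 5 of the genes: the 3 with the most counts, the channel gene Kcnj10 and the marker Gfap. The sequences are RefSeq's on GRCm38.p6, whereas the counts were made on GRCm39, and each line gives the last 30 bases before the start and the first 20 from it, 5′ to 3′ on the gene's strand. Capitals mark the unbroken run of C and T that includes the start base, or the start base alone where it is A or G. The windows are chr7:19699169-19699218 on the minus strand for Apoe (the first of 3 listed starts), chr1:153899899-153899948 on the plus strand for Glul, chr10:76253806-76253855 on the plus strand for S100b, chr1:172341180-172341229 on the plus strand for Kcnj10 and chr11:102897181-102897230 on the minus strand for Gfap.
Apoe: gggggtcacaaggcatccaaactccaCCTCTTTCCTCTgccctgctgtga
Glul: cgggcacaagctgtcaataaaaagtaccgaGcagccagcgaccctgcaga
S100b: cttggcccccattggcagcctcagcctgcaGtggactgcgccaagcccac
Kcnj10: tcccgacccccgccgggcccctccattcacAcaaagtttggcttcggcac
Gfap: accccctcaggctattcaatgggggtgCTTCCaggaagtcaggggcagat

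RefSeq's table held starts for 8 of the 10 genes, 10 windows in all, and it does not list Sparcl1 or Cryab. A C at the annotated start followed by at least 4 bases that are each C or T, read on the gene's strand only, was found in 0 of these 10 windows and in 2.51% of all 32851 windows of the table. Apoe's first start lies inside a run of 12 pyrimidines, although the annotated start base is a T within the run, and 1.48% of all windows had a run of at least 12 across the start. The other 2 Apoe starts had runs of 0 and 1. Gfap's run was 5 bases long, a length reached or passed in 10.1% of all windows. Glul, S100b, Kcnj10, Fabp7, Ptgds and Sparc start with an A or a G in this annotation. Annotated starts can lie some bases from those used in DRG, so a missing match says only that these letters are not at this position.

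The injured libraries held 211337 to 211879 counts and the uninjured libraries 116186 to 116608. Within a group the 3 libraries nearly matched what counting noise alone gives: over genes with at least 15 counts, the variance between libraries was 1.12 times that of counting in the injured and 1.16 times in the uninjured group. They were therefore summed and counted as 1 sample per group, of 634615 counts with injury and 349027 without. Levels are CPM, counts scaled to a common total of 1e6, with exact Poisson 95% intervals, and ratios are injured over uninjured CPM with exact Clopper-Pearson 95% intervals. Both kinds of interval hold only the error of counting, as amplified reads without molecular identifiers can be copies of 1 molecule. With 1 sample per group no difference has a replicate check, and injury and a batch of preparation cannot be told apart. The edgeR test named below thus applies to the reads of 2 samples and not to the conditions, and single genes are given without a p-value.

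After injury, the reads of Glul, Cryab, Sparc and Apoe were higher, those of S100b were lower and those of Sparcl1 did not pass the test. The classical glial markers Gfap and Fabp7 were at or near the limit of the depth in both groups. The marker Kcnj10 and the synthase Ptgds were at that limit in the uninjured group, with 1 count each, against 24 and 15 counts with injury. In edgeR's quasi-likelihood test (Benjamini-Hochberg threshold 0.05, adjusted over 3158 genes), 6 of the 10 genes passed the filter on low counts, of which 4 were called higher and 1 lower. Sparc and Cryab, both called higher, passed this filter only through the injured libraries. They had 3 to 10 counts in each uninjured library. Of all genes tested, 24.9% were called higher and 22.1% lower. A call was thus common in these data, for 47.0% of genes in either direction, and a gene removed by the filter could not be called. With an assumed coefficient of variation in place of the spread between libraries, only Cryab among the 6 was still called at 0.2. At 0.4, 0 of the 6 were called. Of all genes tested, 9.66% were called higher and 5.57% lower at 0.2, and 1.33% and 0.158% at 0.4.

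**Figure D1:**
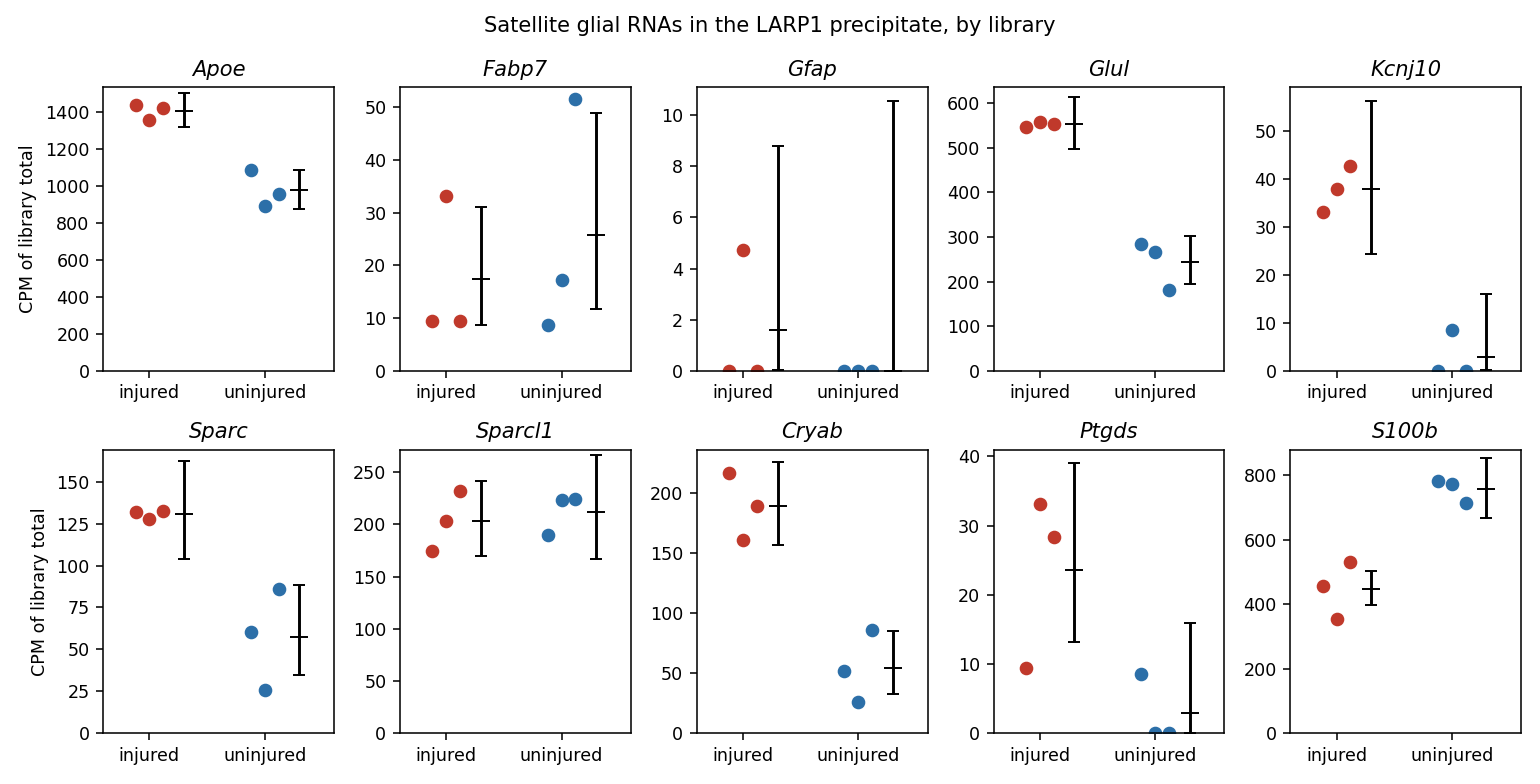
Levels of the 10 satellite glial RNAs in the LARP1 precipitate, in CPM of the library total on a linear axis that differs between panels. Coloured points are the 3 libraries of each group, and the black bar and whiskers are the summed group with its exact Poisson 95% interval. The libraries of the groups are apart for Apoe, Glul, Kcnj10, Sparc, Cryab, Ptgds and S100b and overlap for Fabp7, Gfap and Sparcl1. Of all genes tested, 55.5% had groups apart in either direction. Kcnj10 and Ptgds were not tested and had 1 uninjured count each.

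Glul (ENSMUSG00000026473) encodes glutamine synthetase, with which glia turn glutamate into glutamine. Its counts were 116, 118 and 117 in the injured libraries, against 33, 31 and 21 in the uninjured libraries. These are 547, 558 and 553 CPM with injury and 284, 266 and 181 CPM without, so every injured library was above every uninjured one. The summed level was 553 CPM (497 to 614) with injury and 244 CPM (195 to 301) without, a ratio of 2.27 (1.79 to 2.91). Of the 3158 genes tested, 85.2% had a lower ratio. The injured libraries lay closer together than counting noise, at 0.011 times its variance, and the uninjured libraries at 1.45 times.

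Kcnj10 (ENSMUSG00000044708) encodes Kir4.1, the inwardly rectifying potassium channel through which satellite glia take up potassium. Its counts were 7, 8 and 9 in the injured libraries and 0, 1 and 0 in the uninjured libraries. The summed levels were 37.8 CPM (24.2 to 56.3) with injury and 2.87 CPM (0.0725 to 16.0) without. The ratio of 13.2 has an interval of 2.15 to 543, since it rests on 1 uninjured count. The groups did not overlap, but the gene was below the filter and was not tested. With no filter edgeR called it higher, and DESeq2 did not.

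Apoe (ENSMUSG00000002985) encodes apolipoprotein E, the secreted carrier of cholesterol and other lipids, which macrophages make as well as glia. Its counts were 305, 287 and 301 in the injured libraries, against 126, 104 and 111 in the uninjured libraries. Per library the level was 1440, 1358 and 1424 CPM with injury and 1084, 892 and 955 CPM without, and the groups did not overlap. Summed, Apoe was at 1407 CPM (1316 to 1503) with injury and 977 CPM (876 to 1086) without. The ratio of 1.44 (1.27 to 1.64) was called higher and lay above that of 67.8% of the genes tested.

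Fabp7 (ENSMUSG00000019874) encodes the brain-type fatty acid-binding protein, used as a satellite glial marker in rodent ganglia. It had 2, 7 and 2 counts in the injured and 1, 2 and 6 in the uninjured libraries, which overlapped. The summed levels of 17.3 CPM (8.65 to 31.0) with injury and 25.8 CPM (11.8 to 48.9) without gave a ratio of 0.672 (0.253 to 1.84), which spans 1. Leaving out single libraries moved this ratio between 0.366 and 1.35, so no direction can be read at this depth.

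Ptgds (ENSMUSG00000015090) encodes lipocalin-type prostaglandin D synthase, a secreted enzyme that also carries lipophilic molecules. Its counts were 2, 7 and 6 in the injured libraries and 1, 0 and 0 in the uninjured libraries. The levels were 23.6 CPM (13.2 to 39.0) with injury and 2.87 CPM (0.0725 to 16.0) without. The ratio of 8.25 rests on 1 uninjured count and has an interval of 1.27 to 347.

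Gfap (ENSMUSG00000020932) encodes the intermediate filament of reactive glia. It had 1 count, in the second injured library, and 0 in the other injured and all uninjured libraries. The injured level was 1.58 CPM (0.0399 to 8.78), and the exact Poisson interval of the 0 in 349027 uninjured counts reaches 10.6 CPM. No fold is given, since both groups were under the floor of 3 counts, which is 4.73 CPM over the injured and 8.60 CPM over the uninjured group.

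**Figure D2:**
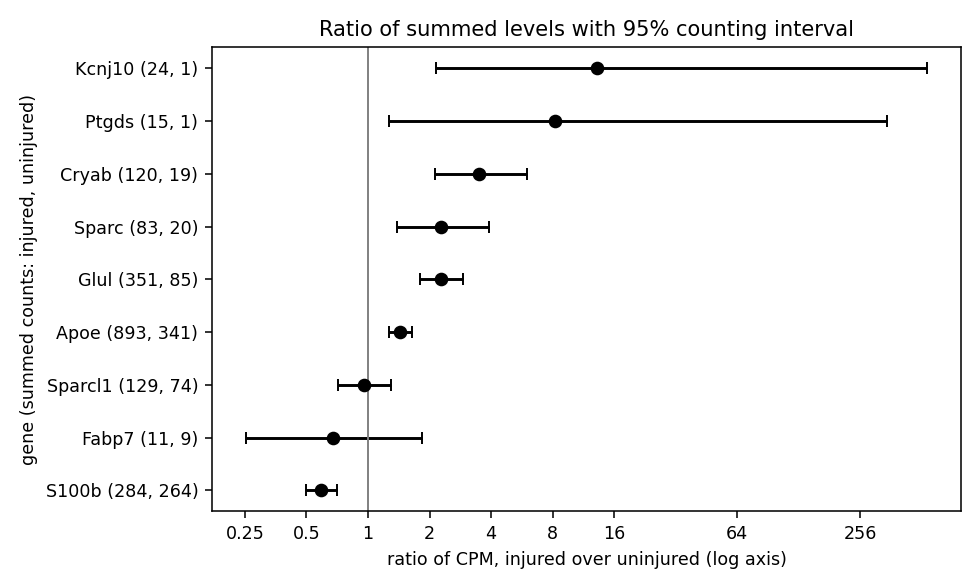
Ratio of summed CPM, injured over uninjured, on a log axis for the 9 genes with a ratio (Gfap has none). Points are the ratios, whiskers their exact 95% counting intervals, numbers in brackets the summed counts of the injured and the uninjured group, and the vertical line marks a ratio of 1; the intervals of Fabp7 and Sparcl1 include 1, and S100b lies below it.

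Sparc (ENSMUSG00000018593) and Sparcl1 (ENSMUSG00000029309) encode related secreted matricellular proteins, SPARC (osteonectin) and SPARC-like 1 (hevin), which bind the extracellular matrix and are known as glial regulators of synapses in the brain; fibroblasts make SPARC as well. Sparc had 28, 27 and 28 counts in the injured libraries, against 7, 3 and 10 in the uninjured libraries. That is 132, 128 and 132 CPM with injury and 60.2, 25.7 and 86.1 CPM without, with no overlap. The summed levels were 131 CPM (104 to 162) with injury and 57.3 CPM (35.0 to 88.5) without, a ratio of 2.28 (1.39 to 3.93). The call of Sparc was lost without the second uninjured library, which held 3 of its 20 uninjured counts: edgeR's log2 fold change was 1.11 with it and 0.75 without it. DESeq2 did not call Sparc either, at a log2 fold change of 1.19.

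The difference in Sparcl1 did not pass the test. It had 37, 43 and 49 counts in the injured and 22, 26 and 26 in the uninjured libraries, or 175, 203 and 232 CPM with injury and 189, 223 and 224 CPM without. The libraries overlapped, and the ratio was 0.959 (0.715 to 1.29), an interval that reaches from 1.40-fold lower to 1.29-fold higher. Within a library, free of any scaling between libraries, there were 0.757, 0.628 and 0.571 Sparc counts per Sparcl1 count with injury and 0.318, 0.115 and 0.385 without. The summed quotient was 2.38 times higher in the injured group (exact conditional 95% interval 1.32 to 4.43).

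Cryab (ENSMUSG00000032060) encodes alpha B-crystallin, a small heat shock protein that keeps unfolded proteins soluble and is also made by Schwann cells. Its counts were 46, 34 and 40 in the injured libraries, against 6, 3 and 10 in the uninjured libraries. The levels were 217, 161 and 189 CPM with injury and 51.6, 25.7 and 86.1 CPM without, so the lowest injured library was above the highest uninjured one. Summed, Cryab was at 189 CPM (157 to 226) with injury and 54.4 CPM (32.8 to 85.0) without. The ratio of 3.47 (2.13 to 5.97) was higher than that of 92.7% of the genes tested. Cryab was among those genes only through its injured libraries, so this rank is no support for a direction. Each group was also summed to 1 sample, with a coefficient of variation of 0.2 assumed in place of the spread between libraries. Cryab was then the only one of the 6 tested satellite glial genes still called. Of all genes, 9.66% were called higher and 5.57% lower at this setting. As Cryab was tested only through its injured libraries, its call is no support for a direction either. With an assumed coefficient of 0.4, 0 of the 6 were called, where 1.33% of all genes were called higher and 0.158% lower.

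S100b (ENSMUSG00000033208) encodes a calcium-binding protein of glia that is present in both satellite glia and Schwann cells, and of the 6 genes tested it alone was called lower. Its counts were 97, 75 and 112 in the injured libraries, against 91, 90 and 83 in the uninjured libraries, which are the shallower ones. In CPM, that is 458, 355 and 530 CPM with injury and 783, 772 and 714 CPM without, and the groups did not overlap. The summed levels were 448 CPM (397 to 503) with injury and 756 CPM (668 to 853) without, a ratio of 0.592 (0.499 to 0.702). Its injured libraries varied by 3.65 times counting noise, more than those of any other of the 10 genes with at least 15 counts, and the uninjured libraries by 0.208 times. Without the third injured library the ratio was 0.537, and without the second it was 0.653.

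**Figure D3:**
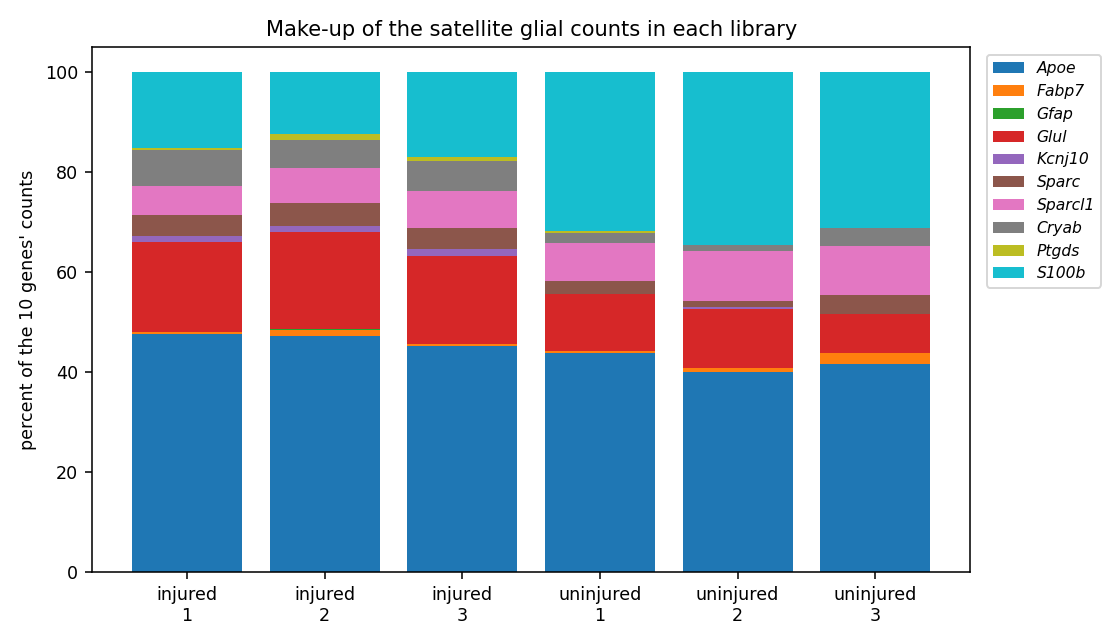
Make-up of the 10 genes' counts in each library, as percent of their sum, with the injured libraries at left. Each colour is a gene; the S100b share is 12.4% to 16.9% in the injured and 31.1% to 34.6% in the uninjured libraries.

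The genes did not all differ in the same direction, as 4 of the 6 tested were called higher and 1 lower. Quotients of counts within a library need no scaling between libraries. Those described were chosen with the values known and are given as descriptions. S100b was the gene called lower, so the direction of a gene called higher over S100b was fixed in advance. The libraries of a group count as 1 sample, so their agreement adds no replicate check. There were 3.14, 3.83 and 2.69 Apoe counts per S100b count in the injured libraries and 1.38, 1.16 and 1.34 in the uninjured libraries, a summed quotient 2.43 times higher with injury (1.96 to 3.02). Glul per S100b was 1.20, 1.57 and 1.04 with injury and 0.363, 0.344 and 0.253 without, 3.84 times higher (2.85 to 5.20). Cryab per S100b was 0.474, 0.453 and 0.357 with injury and 0.0659, 0.0333 and 0.120 without, 5.87 times higher (3.47 to 10.4). Glul also gained on Apoe, at 0.393 Glul counts per Apoe count with injury and 0.249 without, 1.58 times higher (1.20 to 2.09), with no overlap between libraries. By contrast, Cryab per Glul differed by 1.53 times (0.877 to 2.78) and Sparc per Glul by 1.00 times (0.572 to 1.83), intervals that include 1.

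As a share of the 10 genes' own counts, S100b made up 14.9% in the injured group (Wilson 95% interval 13.3% to 16.5%, of 1911 counts) and 32.4% in the uninjured group (29.3% to 35.7%, of 814 counts). Glul made up 18.4% (16.7% to 20.2%) with injury and 10.4% (8.52% to 12.7%) without, and Cryab 6.28% (5.28% to 7.46%) with injury and 2.33% (1.50% to 3.62%) without. Apoe held the most counts in both groups, 46.7% (44.5% to 49.0%) with injury and 41.9% (38.5% to 45.3%) without. These are shares of counts and not of molecules per gene length.

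Summed over the 10 genes, the level was 3021, 2872 and 3141 CPM in the injured libraries, against 2469, 2230 and 2298 CPM in the uninjured libraries, with no overlap. The ratio of the sums was 1.29 (1.19 to 1.40), and it depended on which genes were summed. It was 1.18 (1.06 to 1.32) without Apoe, 1.63 (1.48 to 1.80) without S100b and 1.93 (1.65 to 2.26) without both. The genes left out were chosen with their values known. Leaving out S100b, the only tested gene called lower, had to raise the ratio. Of the 9 genes with a ratio, 6 were above 1 and 3 below it, with 3 of the 9 below the filter on low counts. The intervals of Fabp7 and Sparcl1, both below 1, include 1, and the ratios of Kcnj10 and Ptgds, above it, rest on 1 uninjured count each. The share of all genes tested with a ratio above 1 was not counted, so no tendency is read from this split. The median log2 ratio of CPM was 0.85 over the 6 satellite glial genes that passed the filter and 0.08 over all 3158 genes tested; these are descriptions, with no spread for a median of 6 genes. Of the 6 tested, every injured library was above every uninjured one in 4 genes and below in 1, where the shares over all genes tested were 32.4% and 23.1%, and 55.5% for either direction. Outside the filter, Kcnj10 and Ptgds also had every injured library above, each against 1 uninjured count in all, and for Ptgds the gap was that between 2 counts and 1. Of the 6 genes tested, 3 were more than 2-fold higher in CPM and 0 more than 2-fold lower, where 18.2% and 10.2% of all genes tested were. Sparc and Cryab enter the median over the tested genes and the counts of genes without overlap and of genes more than 2-fold higher. Both passed the filter only through the injured libraries, so their being tested depended on a high injured level, and these counts are no support for a direction.

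**Figure D4:**
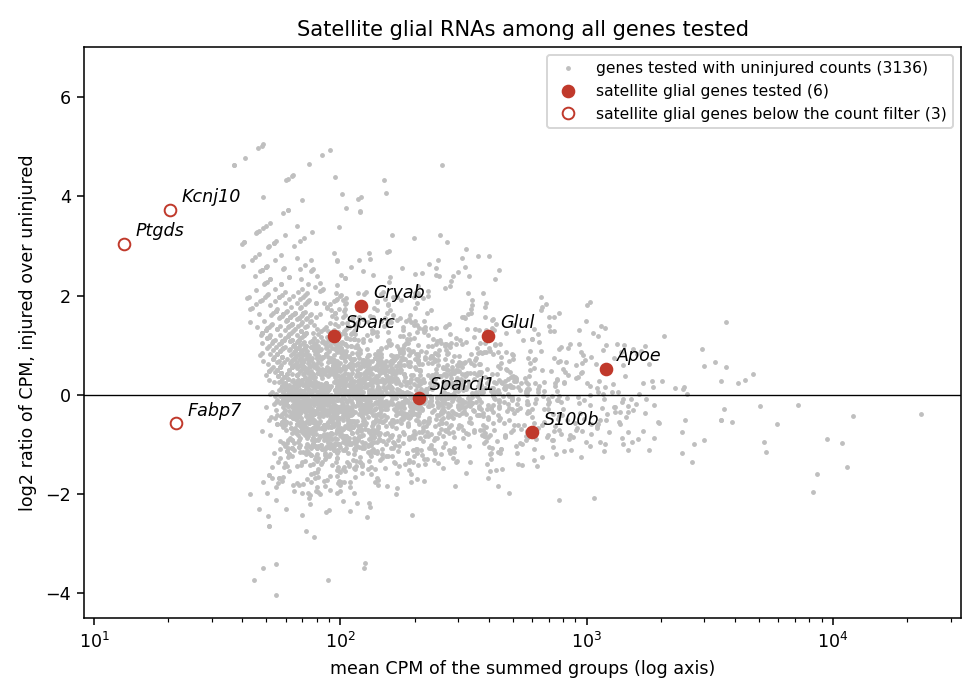
The log2 ratio of CPM, injured over uninjured, against the mean CPM of the summed groups on a log axis. Grey points are the 3136 genes tested that had uninjured counts, of which 2 lie beyond the axis limits. Filled red points are the 6 satellite glial genes tested and open red circles the 3 below the filter on low counts. Cryab, Glul and Sparc lie above most grey points and S100b below most. Cryab and Sparc passed the filter only through the injured libraries, so their place is no support for a direction.

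The genes of the group differed in how many reads they had in these libraries, and whether the reads came from satellite glia was not tested. Of the genes most often used to define satellite glia, Glul was well covered at 351 injured and 85 uninjured counts, whereas Kcnj10 (24 and 1), Fabp7 (11 and 9) and Gfap (1 and 0) had few reads. Apoe, S100b, Sparc and Cryab, which are known from Schwann cells, macrophages or fibroblasts as well, held 1380 of the 10 genes' 1911 injured counts and 644 of their 814 uninjured counts. Markers of those cells were not analysed here, because no table used here pairs the other Ensembl identifiers with symbols, so their part in these values was not tested. Whether the other genes of the list are made by other cells as well was not examined. The 1380 and 644 counts therefore do not measure a part shared with other cells.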

How the data were processed

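LARP1 precipitates from DRG of injured and uninjured wild-type mice were compared, with 3 libraries per group. The authors deposited unnormalized estimated counts for each Ensembl gene identifier, all of them whole numbers. The submitters' processing notes name minimap2, Salmon and the build GRCm39 (mm39); for versions, parameters, annotation and filters, nothing is given in the sources used here. Salmon divides reads between similar transcripts, so counts of similar genes are estimates. Groups came from the sample titles, and columns were matched by library name.

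Counts were summed by group, divided by the totals and given as CPM with 95% intervals (scipy 1.17.1); 3 counts over a group, 4.73 CPM with injury and 8.60 CPM without, served as the floor for 0. All genes were fitted with edgeR 4.0.16 (R 4.3.3): TMM factors, filterByExpr, quasi-likelihood test, Benjamini-Hochberg threshold 0.05. Counts were also simulated with the common spread that edgeR found between these libraries. The test recovered 13.4% of the planted 1.5-fold changes, 46.3% of the 2-fold and 65.2% of the 4-fold changes. Spread between animals was not simulated. edgeR's log2 fold changes with TMM differ by a median of -0.07 from the log2 ratios of CPM by full library totals. Alternatives were limma-voom (limma 3.58.1), DESeq2 1.42.0, other factors and filters, a replicate block, leaving out libraries, thinned injured libraries and assumed spreads. An exact binomial test and sums without single genes were added after the data were seen. All 10 genes are named, whatever they showed; they, their symbols and the comparison lists were chosen with earlier results of these data known. The lists of other glial, Schwann cell, macrophage, fibroblast, endothelial and neuronal genes were not analysed here, as no identifiers were paired with symbols.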

Additional observations from a re-analysis of the deposited data

How the results depend on the processing

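The 4 higher calls and 1 lower call among the satellite glial genes stayed within 1.5 times under 16 of 18 alternatives, with 3 to 4 higher and 1 lower when 1 library was left out, and with 5 higher calls, Kcnj10 included, without a filter. The exceptions were the assumed spreads: at a coefficient of variation of 0.2, 1 gene was called higher and 0 lower (305 and 176 of all genes), and at 0.4, 0 and 0 (42 and 5 of all genes). Over all genes, the 786 higher and 699 lower calls became 638 to 836 and 582 to 756 when 1 library was left out. The replicate block gave 750 and 677 calls and the same 4 and 1 satellite glial counts. Libraries with the same number had deviations that correlated at 0.0389, -0.0063 and -0.0506. These deviations are mostly counting noise, so the correlations cannot decide whether the numbers mark pairs. The libraries were not treated as paired in the main test. Higher calls made up 62.0% of calls without a filter (948 and 582), 60.3% with totals alone (927 and 610), 52.9% with TMM and 47.7% with limma-voom. The ratio of the summed genes was 1.26 to 1.33 when 1 library was left out, 1.18 without Apoe, 1.63 without S100b and 1.93 without both. The genes left out were chosen with their values known, so these last sums are descriptions. All 9 single-gene ratios stayed within their intervals under every other scaling and every library left out that gave a value; leaving out the library with the only uninjured count gave none for Kcnj10 or Ptgds. Sparcl1, never called, had log2 fold changes of -0.29 to 0.02. Depth limits Gfap, Fabp7, Kcnj10 and Ptgds.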
